A study of Homo sapiens with 3 samples.

Results

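Serpins of clade B and the plasminogen activators are protease regulators of epithelial cells, and 9 of their genes were read here in MCF10A cells. The genes were taken by name and matched through Ensembl identifiers to GENCODE release 44. They were SERPINB1, SERPINB2, SERPINB5, SERPINB7, SERPINB8, SERPINB13, PLAU, PLAUR and PLAT, and all 9 were found among the 62754 genes of the deposited table. MCF10A is a line of immortalized human mammary epithelial cells that do not form tumors. The cells had been transduced with an empty retroviral vector of a doxycycline-inducible system and selected with puromycin. The vector carried no gene of interest and the cells received no doxycycline. RNA was taken during exponential growth in medium with mammary epithelial supplements and cholera toxin. Each library was made from 300 ng RNA, from which ribosomal RNA was removed. There is 1 condition, in 3 replicates, and no group to compare it with. The sample titles and library names do not name a batch. Neither the labels nor the methods say that the replicates came from separate cultures, and the spread between them may be technical.

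Urokinase (PLAU) and tissue plasminogen activator (PLAT) are secreted serine proteases that cut plasminogen into plasmin, which degrades fibrin and matrix proteins. Urokinase acts at the cell surface when it is bound to its receptor, the membrane-anchored protein encoded by PLAUR. Both activators are blocked by serpins, which offer the protease a loop as bait and trap it once the loop is cut. Clade B serpins mostly lack a classical secretion signal and act largely inside the cell, against proteases of lysosomes, granules or the secretory pathway. Maspin (SERPINB5), known from mammary epithelium and described as a tumor suppressor, belongs to this clade but is not an inhibitor of proteases in the classical way.

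Levels were deposited as TPM, which corrects the reads for transcript length and for the total of the replicate. Comparisons between genes depend on the transcript length taken for each, and the order of some genes below turns with it. Multiplied by annotated lengths, 100% of the values came out as multiples of 1 smallest step within 0.01. If this step is 1 read, replicates 1, 2 and 3 hold 15273329, 15446347 and 11166546 reads. Intervals given for single replicates are exact Poisson intervals at 95% of these reads and cover counting error only. Replicate 3 stood apart, with 15.1% of its TPM on the short non-coding RNA RN7SL1, against 4.93% and 5.66% in replicates 1 and 2. Protein-coding genes held 79.6% of TPM in replicate 3, against 91.5% and 89.8% in the others. For the 8809 genes averaging 10 TPM or more, the log2 ratio of replicate 3 to the mean of replicates 1 and 2 had a median of -0.24.

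The basal epithelial markers KRT5, KRT14, KRT17, KRT6A, TP63, ITGB4 and LAMB3 were all at or above 1 TPM, with a summed level of 18757, 18273 and 14577 TPM in replicates 1, 2 and 3. Of 6 luminal markers, 3 were at or above 1 TPM, KRT18 at 413, KRT8 at 118 and GATA3 at 12.8 TPM. The sum over this list was 576, 577 and 477 TPM in replicates 1, 2 and 3, and KRT19, ESR1 and PGR had at most 3 reads in any replicate. Of 6 fibroblast markers, 2 were at or above 1 TPM (COL1A1 and DCN), with a sum over the list between 13.6 and 14.8 TPM and 0 reads on COL1A2 and LUM. Of 4 leukocyte markers, 1 was (CD14), with a sum between 1.15 and 2.96 TPM. Of 3 endothelial markers, 1 was (PECAM1), with a sum between 1.57 and 2.0 TPM and 0 reads on CDH5.

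Of the 9 genes, 7 had a mean of at least 1 TPM, the cutoff that the study used for an expressed gene, and the same 7 were at or above it in every replicate. Over all 20046 protein-coding genes, 56.7% reached this cutoff by the mean and 55.2% in every replicate, and over all 62754 genes 24.9% reached it by the mean. The counts for the marker lists and the other lists stand beside the same shares. By the deposited TPM the levels ran from maspin, above 1000 TPM in each replicate, to SERPINB2, at no more than 1 read. In order of the means the genes were SERPINB5, PLAU, PLAT, SERPINB8, PLAUR, SERPINB1, SERPINB7, SERPINB13 and SERPINB2. PLAT and SERPINB8 did not differ beyond their spread, with PLAT the higher in 1 of 3 replicates. Neither did PLAUR and SERPINB1, whose means differed by 2.73 TPM with an SD of 3.53 TPM for PLAUR, and PLAUR was the higher in 2 of 3 replicates. Both ties depend on the transcript length by which reads are divided, which in the deposited TPM is that of the longest transcript. With the length of the canonical transcript, PLAT was above SERPINB8 (32.5 and 28.9 TPM) and PLAUR above SERPINB1 (20.2 and 15.0 TPM) in 3 of 3 replicates, each by more than the larger SD. Each of the other 6 pairs of neighbours kept its order in 3 of 3 replicates, with a difference of means over the larger SD, with either length. With 3 pairs of values an exact permutation test cannot give a two-sided p below 0.25, and none is given.

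**Figure D1:**
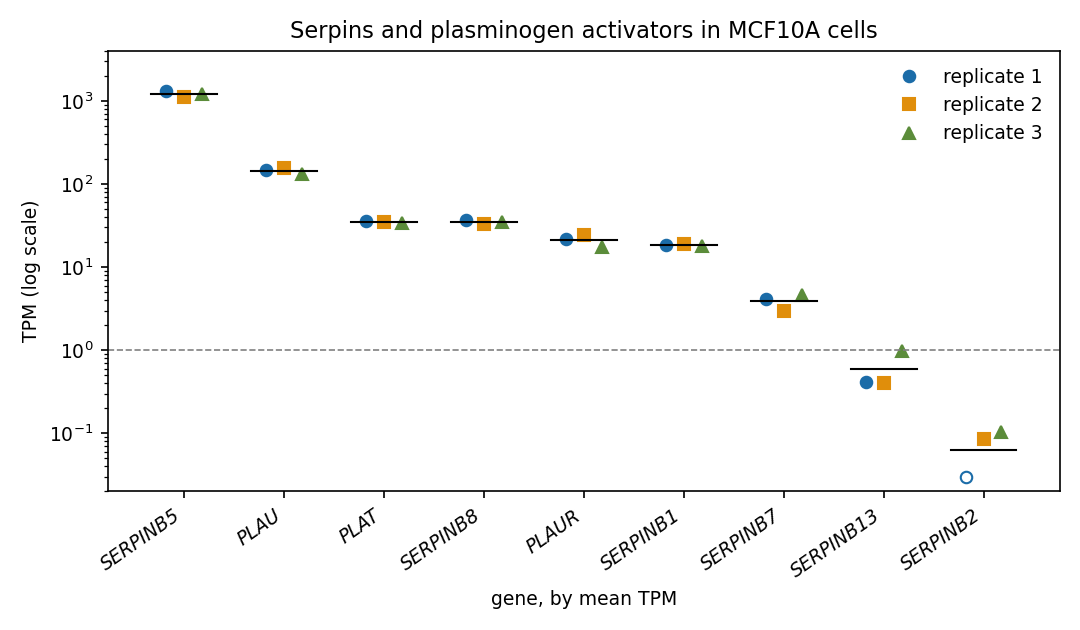
TPM of the 9 genes in each replicate on a log axis, in order of the mean (black line), with the cutoff of 1 TPM dashed and an open symbol at the bottom for 0 reads. SERPINB5 lies between 1100 and 1306 TPM, 6 genes lie between 2.95 and 155 TPM, and SERPINB13 and SERPINB2 lie below the cutoff in all 3 replicates.

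Maspin was the highest of the 9 genes by far. SERPINB5 (ENSG00000206075, chromosome 18 of hg38, from 63476958 to 63505085 on the plus strand) had 1306, 1100 and 1200 TPM, or 17749, 15374 and 13877 reads, in replicates 1, 2 and 3. The mean was 1202 ± 103 TPM (SD, n = 3), which placed it 88th of 20046 protein-coding genes, within the top 0.439%. It was 8.33 times the mean of PLAU, the next of the 9. With canonical transcript lengths the mean of SERPINB5 was 980 ± 84.1 TPM (SD, n = 3), 7.34 times that of PLAU. SERPINB5 held 82.3 ± 1.68% (SD, n = 3) of the summed TPM of the 9 genes and 92.9 ± 0.608% (SD, n = 3) of that of all 13 clade B serpins, or 86.0 ± 1.71% (SD, n = 3) with canonical transcript lengths.

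The other serpins of the 9 genes lay far below maspin. SERPINB8, an inhibitor of furin (ENSG00000166401, chromosome 18 of hg38, from 63970029 to 64019779 on the plus strand), was measured at 36.5, 32.7 and 34.9 TPM in replicates 1, 2 and 3, with a mean of 34.7 ± 1.92 TPM (SD, n = 3). FURIN itself, the proprotein convertase, had a mean of 92.6 TPM, 2.67 times that of SERPINB8 and higher in 3 of 3 replicates. Of the canonical transcript of SERPINB8, 11.1% of the bases are shared with HMSD on the same strand, a gene with a mean of 0.0293 TPM.
SERPINB1 inhibits neutrophil elastase, cathepsin G and proteinase 3 (ENSG00000021355, chromosome 6, from 2832332 to 2841959 on the minus strand). It was measured at 18.4, 18.8 and 17.9 TPM, with a mean of 18.4 ± 0.479 TPM (SD, n = 3). Its 3 target proteases ELANE, CTSG and PRTN3 had 0 reads in every replicate, as did GZMB. The share of protein-coding genes without a read in any replicate was 26.2%.
SERPINB7, a serpin of the upper epidermis also called megsin (ENSG00000166396, chromosome 18, from 63752935 to 63805376 on the plus strand), was measured at 4.08, 2.95 and 4.59 TPM from 47, 35 and 45 reads. Its mean was 3.87 ± 0.836 TPM (SD, n = 3), and replicate 2 was the lowest.

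SERPINB13 and SERPINB2 were below 1 TPM in all 3 replicates. SERPINB13, also known as headpin, inhibits the lysosomal proteases cathepsin K and cathepsin L (ENSG00000197641, chromosome 18, from 63586989 to 63604639 on the plus strand). It was measured at 0.415, 0.404 and 0.976 TPM from 7, 7 and 14 reads. Replicate 3 was the highest, but its interval from 0.534 to 1.64 TPM overlapped those of replicate 1, from 0.167 to 0.856 TPM, and of replicate 2, from 0.162 to 0.832 TPM. In bulk RNA, fewer cells that express a gene and less RNA per cell cannot be told apart. Its targets CTSL and CTSK had means of 49.2 and 1.91 TPM, and of 112 and 4.43 TPM with the length of the canonical transcript.
SERPINB2 encodes PAI-2, an inhibitor of urokinase (ENSG00000197632, chromosome 18, from 63871692 to 63903888 on the plus strand). It had 0, 1 and 1 reads, or 0, 0.0860 and 0.104 TPM. The 0 in replicate 1 allows up to 0.265 TPM at 3 reads, and the upper ends of the intervals in replicates 2 and 3 were 0.479 and 0.579 TPM. Of the canonical transcript of SERPINB2, 28.7% is shared with a gene without a symbol (ENSG00000289724) on the same strand, which had 0 reads in every replicate. Reads on shared bases may have been left out of the counting of either gene, which was not tested. From all reads per length, SERPINB5 was 19555 times as high as SERPINB2. The interval of this ratio, for counting error only, ran from 5413 to 161472 and rests on these 2 reads. Without replicate 1, where SERPINB2 had 0 reads, the log2 value of this ratio was 13.57 in place of 14.26.

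Most clade B serpin genes lie in a cluster on chromosome 18, and the rest in a smaller one on chromosome 6. From the start of SERPINB5 to the end of SERPINB8 the cluster on chromosome 18 spans 543 kb and holds 10 serpin genes, of which 4 had a mean of at least 1 TPM. Maspin stands at one end of the cluster and SERPINB8 at the other. Of the 8 genes between them, SERPINB7 and SERPINB3, at 1.51 TPM, were above the cutoff and SERPINB12, SERPINB13, SERPINB4, SERPINB11, SERPINB2 and SERPINB10 below it. SERPINB12, whose start lies 65.4 kb from that of SERPINB5, had a mean of 0.0873 TPM from 3, 1 and 1 reads. SERPINB10 had 0 reads in every replicate. SERPINB3 and SERPINB4 are near-identical copies whose reads the counting could have split or dropped, and 36.3% of the canonical transcript of SERPINB3 lies opposite to SERPINB11, so that their values of 1.51 and 0.0800 TPM are uncertain. In the cluster of 140 kb on chromosome 6, SERPINB1 at 18.4 TPM and SERPINB6 at 31.4 TPM, an inhibitor of cathepsin G, flanked SERPINB9 at 0.245 TPM, the inhibitor of granzyme B. SERPINB9 had 0, 8 and 7 reads in replicates 1, 2 and 3. The TPM of SERPINB6 rests on a longest transcript of 5620 bases, where its canonical transcript has 1315, and with that length its mean was 110 TPM, above SERPINB8 in 3 of 3 replicates. Of all 13 clade B serpins, 6 were at or above 1 TPM, 4 of them among the 9 genes read here, where 56.7% of all protein-coding genes reached this level.

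**Figure D2:**
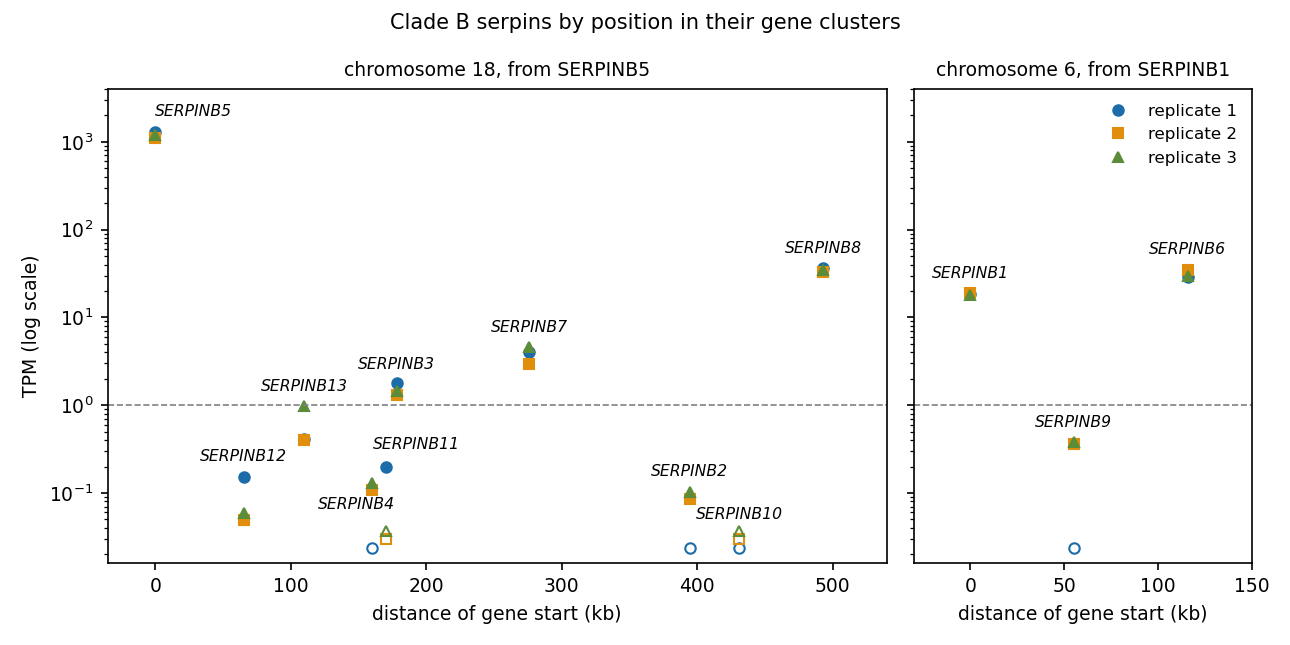
TPM on a log axis of the 13 clade B serpins against the distance of the gene start from that of SERPINB5 (chromosome 18) or SERPINB1 (chromosome 6), in kb, for each replicate, with the cutoff of 1 TPM dashed and open symbols at the bottom for 0 reads. On chromosome 18 the highest genes, SERPINB5 and SERPINB8, are the outermost ones, and 6 of the 8 genes between them have means below 1 TPM.

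To set the levels beside the sequence in front of these genes, the 250 bases before the start of the canonical transcript were read from RefSeq promoter sequences (GRCh38.p14). They were found for 8 of the 9 genes, all but PLAT. The motifs searched on both strands were the TATA box (TATAAA), the AP-1 site (TGANTCA), the GC box (GGGCGG) and the cyclic AMP response element (TGACGTCA). They occur in 10.7%, 6.57%, 42.6% and 1.65% of the 35116 promoters of the table. Of the 8 genes, SERPINB2 and SERPINB8 held a TATA box, and SERPINB2, SERPINB5, SERPINB7, SERPINB8, SERPINB13 and PLAUR held an AP-1 match. The AP-1 letters are a loose form of the site with any base at N. The only match of SERPINB5 and of SERPINB2 reads TGAATCA. SERPINB1, SERPINB5 and PLAU held a GC box, and none of the 8 held the cyclic AMP response element. The share of G and C was 60% before SERPINB5, with 13 CpG, and 37.2% before SERPINB2, with 0 CpG, where the median over the table was 58% and 11 CpG. It was 36.8% before SERPINB7, 44.4% before SERPINB13 and 49.2% before SERPINB8. It was 63.6% before SERPINB1, 63.2% before PLAUR and 68.8% before PLAU, where the table holds 3 starts for SERPINB7 and 2 for PLAU and the canonical one was used. A match is a description of these letters and not a site in use. Shown are the sequences of the highest gene (SERPINB5, chr18:63476708-63476957, plus strand), of the gene at the other end of its cluster (SERPINB8, chr18:63969831-63970080, plus strand), of the lowest gene (SERPINB2, chr18:63887455-63887704, plus strand) and of urokinase (PLAU, chr10:73910882-73911131, plus strand), with motif matches in capitals.
SERPINB5: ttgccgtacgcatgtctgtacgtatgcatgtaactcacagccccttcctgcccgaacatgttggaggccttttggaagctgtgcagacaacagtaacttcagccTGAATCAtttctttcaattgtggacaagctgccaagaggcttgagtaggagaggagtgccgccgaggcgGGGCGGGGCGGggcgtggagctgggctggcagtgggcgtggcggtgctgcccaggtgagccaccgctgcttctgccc
SERPINB8: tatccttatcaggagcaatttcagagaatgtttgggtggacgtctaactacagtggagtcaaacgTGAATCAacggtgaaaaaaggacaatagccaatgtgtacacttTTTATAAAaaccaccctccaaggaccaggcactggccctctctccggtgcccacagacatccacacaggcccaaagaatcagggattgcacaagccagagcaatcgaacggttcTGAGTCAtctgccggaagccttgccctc
SERPINB2: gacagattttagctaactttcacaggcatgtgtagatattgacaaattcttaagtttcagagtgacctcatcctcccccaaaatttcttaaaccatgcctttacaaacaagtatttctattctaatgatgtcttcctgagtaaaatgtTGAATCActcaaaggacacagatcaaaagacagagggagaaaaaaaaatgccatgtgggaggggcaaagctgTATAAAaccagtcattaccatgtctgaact
PLAU: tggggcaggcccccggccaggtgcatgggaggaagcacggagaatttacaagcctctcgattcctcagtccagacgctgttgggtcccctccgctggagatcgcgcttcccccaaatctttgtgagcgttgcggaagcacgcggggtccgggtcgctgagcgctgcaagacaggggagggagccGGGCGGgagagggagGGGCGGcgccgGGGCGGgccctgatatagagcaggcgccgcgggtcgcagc
In maspin the AP-1 match begins 146 bases before the start and the overlapping pair of GC boxes 77 and 72 bases before it. In SERPINB2 the TATA box begins 30 bases and the AP-1 match 102 bases before the start. SERPINB8 holds AP-1 matches at 185 and 28 bases and a TATA box on each strand at 142 and 140 bases, which overlap. PLAU holds GC boxes at 66, 51 and 40 bases.

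Of both plasminogen activators, urokinase had the higher transcript level. PLAU (ENSG00000122861, chromosome 10 of hg38, from 73909177 to 73917496 on the plus strand) was measured at 146, 155 and 132 TPM in replicates 1, 2 and 3, with a mean of 144 ± 11.8 TPM (SD, n = 3). It ranked 1005th of 20046 protein-coding genes, and replicate 3 was the lowest. Of its canonical transcript, 18.3% lies opposite to C10orf55, a gene with a mean of 1.66 TPM, and the use of strand in counting is not given in the sources used here. PLAT (ENSG00000104368, on chromosome 8) was measured at 35.9, 35.3 and 34.1 TPM, with a mean of 35.1 ± 0.929 TPM (SD, n = 3). Within each replicate the level of PLAU exceeded that of PLAT by 2.02, 2.13 and 1.95 on the log2 scale, a mean of 2.04 ± 0.09 (SD, n = 3) or 4.10-fold. PLAU held 80.4 ± 1.01% (SD, n = 3) of the summed TPM of both activators.

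The transcript of the receptor was lower than that of its ligand. PLAUR (ENSG00000011422, chromosome 19 of hg38, from 43646095 to 43670547 on the minus strand) was measured at 21.9, 24.2 and 17.2 TPM from 185, 210 and 124 reads, with a mean of 21.1 ± 3.53 TPM (SD, n = 3). The log2 ratio of PLAU to PLAUR was 2.74, 2.68 and 2.93 in replicates 1, 2 and 3, a mean of 2.78 ± 0.13 (SD, n = 3) or 6.89-fold. Where 56.7% of all protein-coding genes reached 1 TPM, 4 of 7 members of the Ly6 and urokinase receptor family did. The highest of these was LY6E at 250 TPM, and LYPD3, a surface protein of squamous epithelia related to the receptor, had a mean of 13.5 TPM.

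Among the inhibitors described here, SERPINE2 stood above 100 TPM and SERPINB2 close to 0. Whether SERPINE2 was above or below urokinase depends on the transcript length used. SERPINE2 (protease nexin 1), which blocks urokinase and thrombin, was measured at 127, 121 and 103 TPM in replicates 1, 2 and 3, with a mean of 117 ± 12.3 TPM (SD, n = 3). With the longest transcripts, of 5989 bases for SERPINE2 and 2658 for PLAU, it was below PLAU in 3 of 3 replicates, and the mean of PLAU was 1.23 times that of SERPINE2. With the canonical ones, of 2226 and 2343 bases, it was above PLAU in 3 of 3 replicates, at 257 against 133 TPM. From all reads per length, PLAU was 2361 times as high as SERPINB2, with an interval from 653 to 19502 for counting error only. The log2 value of this ratio was 11.21, and 10.58 without replicate 1. Where 56.7% of all protein-coding genes reached 1 TPM, 3 of 7 other inhibitors of plasminogen activators and plasmin did. Besides SERPINE2 these were SERPINI1 (neuroserpin) at 3.99 TPM and SERPINF2, the plasmin inhibitor, at 1.36 TPM. SERPINA5, SERPING1, A2M and CPB2 had means of 0.430, 0.0866, 0.0135 and 0 TPM.

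Plasminogen itself was not detected, while 3 of 4 genes of proteins known to bind it were above 1000 TPM. PLG had 0 reads in every replicate. The other 4 genes of the list of plasminogen and its receptors were at or above 1 TPM. ENO1, a glycolytic enzyme that also binds plasminogen at the surface, had a mean of 3187 TPM, S100A10 2828 TPM and its partner ANXA2 1465 TPM. ANXA2 was above SERPINB5 in 3 of 3 replicates. PLGRKT, a membrane receptor of plasminogen, had a mean of 28.5 TPM.

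Of 15 genes for partners of the urokinase receptor and for its clearance, 12 were at or above 1 TPM. The share over all protein-coding genes, for this list and those that follow, was 56.7%. Among the partners were the integrin subunits ITGB1, the highest of the list at 520 TPM, ITGA3 at 318 TPM and ITGA5 at 77.4 TPM, and the growth factor receptor EGFR at 203 TPM. LRP1, which takes up complexes of urokinase with inhibitors, had a mean of 19.0 TPM, its chaperone LRPAP1 21.9 TPM and the collagen receptor MRC2, which associates with the urokinase receptor, 49.9 TPM. VTN, a matrix ligand of the receptor, had 0 reads in every replicate. VLDLR and ITGB3 were below 1 TPM.
The fibrinogen genes FGA, FGB and FGG had at most 3 reads in any replicate. Of the 10 genes of fibrin and its formation, 6 were at or above 1 TPM, the highest of which was F3, the starter of coagulation known as tissue factor, at 341 TPM. PROCR, THBD, F2RL1, TFPI and F2R lay between 10.9 and 133 TPM.
Of 10 genes listed as proteases inhibited by clade B serpins, 5 were at or above 1 TPM, with CTSB the highest at 154 TPM. Inhibition of the listed proteases was not tested here. Of 16 other pericellular serine proteases and inhibitors, 7 were at or above 1 TPM. These included the secreted inhibitor SLPI at 423 TPM, the membrane protease ST14 (matriptase) at 70.6 TPM and its inhibitors SPINT2 and SPINT1 at 64.8 and 47.6 TPM. With canonical transcript lengths ST14, SPINT2 and SPINT1 had means of 57.4, 120 and 39.8 TPM, which put SPINT2 above ST14. The epidermal proteases KLK5, KLK6, KLK7, KLK8 and KLK10 had at most 1 read in any replicate.

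**Figure D3:**
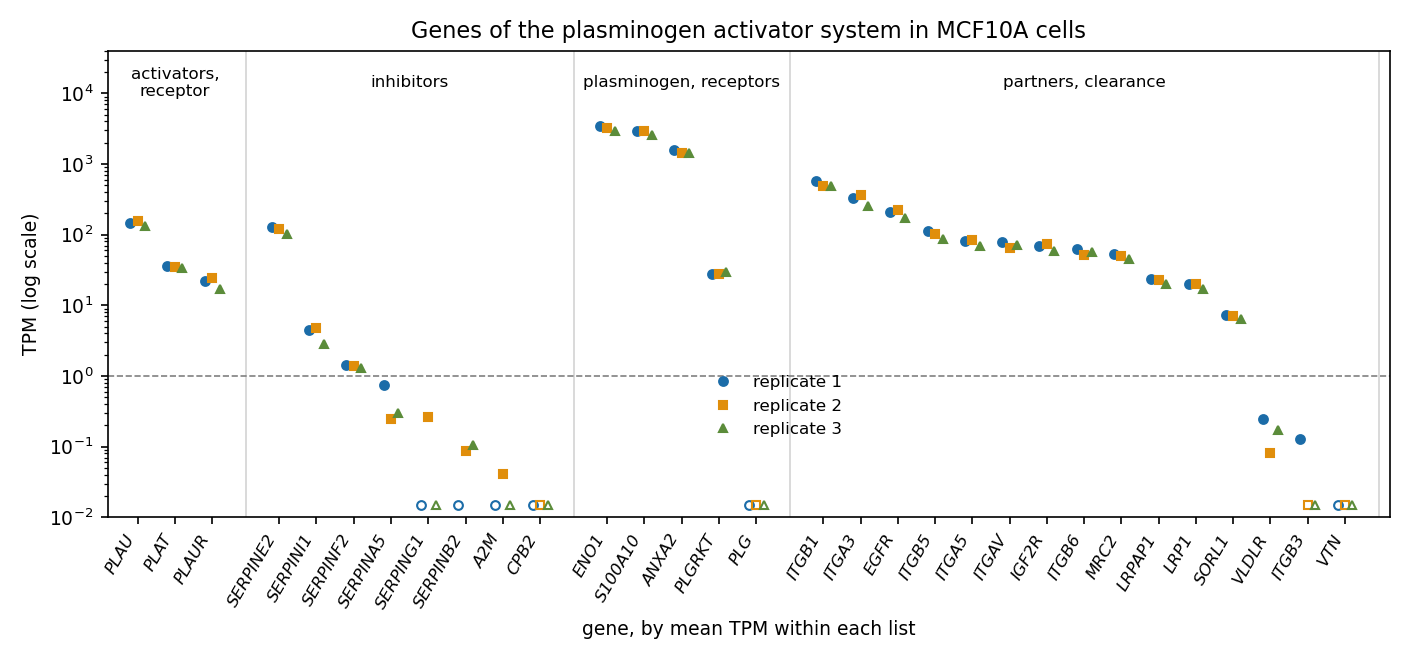
TPM on a log axis of the plasminogen activators and receptor, their inhibitors, plasminogen with its receptors, and the partners and clearance genes, in each replicate and by the mean within each list, with the cutoff of 1 TPM dashed and open symbols at the bottom for 0 reads. By the deposited TPM, PLAU lies at 144 TPM, SERPINE2 at 117 TPM (an order that turns with canonical transcript lengths), SERPINB2 at 0.0633 TPM and PLG at 0.

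The 9 genes varied to different degrees between replicates. For the 7 genes at or above 1 TPM, the SD of log2(TPM + 1) had a median of 0.12 and a range from 0.04 for SERPINB1 to 0.26 for SERPINB7. The median was 0.19 over all 15640 genes at this level and 0.16 over the 11360 protein-coding ones. With TPM rescaled to protein-coding genes the median of the 7 genes was 0.13. The values over all genes were not computed on that scale, and they include the shift of replicate 3. The coefficient of variation of SERPINB5 was 8.54%, where counting of its reads alone gives 0.803%, and that of PLAU was 8.16%, where counting gives 2.29%. That of PLAUR was 16.7% against 7.80%. For SERPINB1, at 2.61% against 6.63%, and PLAT, at 2.65% against 4.05%, the spread of the deposited TPM was below that of counting. For SERPINB8 both were close, at 5.54% and 4.12%, and for SERPINB7 they were 21.6% and 15.5%. These coefficients come from the deposited TPM and include the lower values of most genes in replicate 3. Where each gene would stand against counting with another scaling was not tested.

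**Figure D4:**
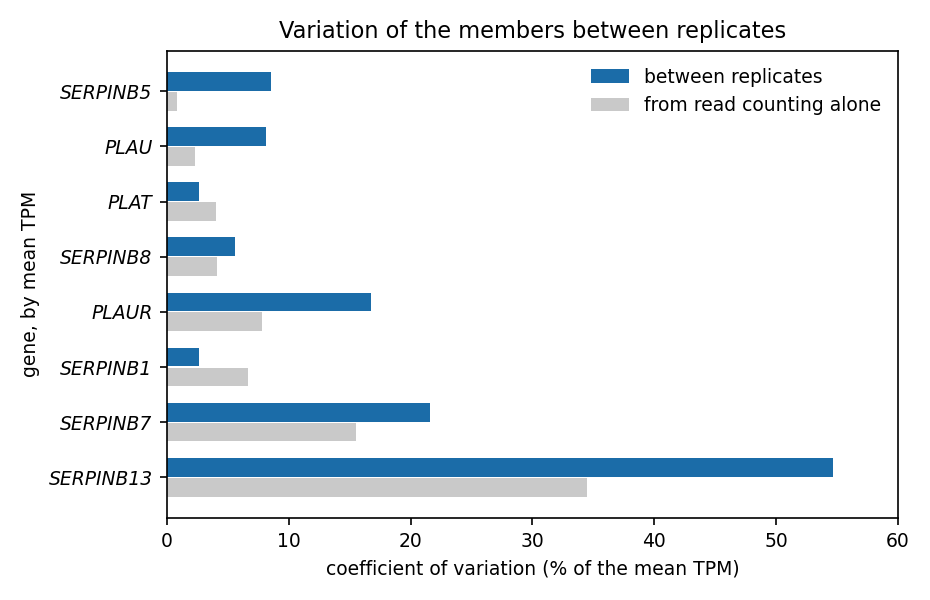
Coefficient of variation of the deposited TPM over the 3 replicates (blue) and that expected from the number of reads alone (grey), in % of the mean, for 8 of the 9 genes in order of the mean. SERPINB2 is left out for its 2 reads, and the gap between both bars is widest in proportion for SERPINB5, at 8.54% and 0.803%.

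Of the 6 genes averaging 10 TPM or more, 4 were lowest in replicate 3 (PLAU, PLAUR, PLAT and SERPINB1) and 0 were highest in it, which holds for 82.8% and 4.28% of all genes at this level. SERPINB5 and SERPINB8 lay between the other replicates. SERPINB7 was highest in replicate 3, so that of the 7 genes at or above 1 TPM 4 were lowest and 1 was highest there, against 69.5% and 9.78% of all genes at that level. The log2 ratio of replicate 3 to the mean of replicates 1 and 2 was -0.42 for PLAUR, -0.19 for PLAU, -0.06 for PLAT and SERPINB1, 0.00 for SERPINB5 and 0.01 for SERPINB8. Over all genes averaging 10 TPM or more, the 5th and 95th percentiles of this ratio were -0.51 and 0.05. Relative to their median of -0.24, PLAUR was lower by 0.18 and SERPINB8 higher by 0.25 on the log2 scale. The part of the RN7SL1 share of replicate 3 in these values was not tested.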

How the data were processed

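The samples are RNA-seq libraries of MCF10A cells with an empty vector, in 3 replicates. The authors used Seq2science for mapping to hg38 and counting, and the submitters' processing notes name fastp, STAR and MultiQC. They deposited 1 table with the TPM of 62754 genes per replicate. Which annotation was used, and whether counting was stranded, is not given in the sources used here. GENCODE release 44 holds 62700 of these genes.

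TPM was multiplied by the length of the longest transcript, with 1 base less per exon, and expressed in units of the lowest product above 0 of that replicate, taken as 1 read. On simulated data of 62700 genes, built with these same lengths, this returned 100% of the reads. The simulation checks the arithmetic only. It cannot show which lengths the deposited TPM used or that the smallest step is 1 read. Spread was computed on log2(TPM + 1). Neighbours in level were compared by their order in each replicate and by the larger SD, and no test was run. Ratios that involve SERPINB2 were taken from summed reads per length, with exact Clopper-Pearson intervals at 95%. These intervals pool the reads of the 3 replicates and leave out variation between replicates.

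The 9 genes and all lists were chosen with earlier results of these data known. All 9 genes are named, with PLG, every clade B serpin, the highest gene of each list and others at or above 1 TPM. Genes below 1 TPM that are named beyond this were chosen after their values were seen. Another gene of the lists is not reported here. Alternatives covered cutoff, scaling, pseudocount, gene length and leaving out each replicate. Protein sequences were not used here. Scripts ran under Python 3.11.15 (scipy 1.17.1, numpy 2.4.6, pandas 2.3.3; figures with matplotlib 3.10.9).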

Additional observations from a re-analysis of the deposited data

How the results depend on the processing

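No paired analysis was possible because the series holds a single condition. The count of 7 genes at or above 1 TPM held under every alternative tried except a cutoff of 0.5 TPM, which gave 8 with SERPINB13. On the log2(TPM + 1) scale the log2 ratios to SERPINB2, which are 11.21 for PLAU and 14.26 for SERPINB5 from all reads, were 7.09 and 10.14, since the pseudocount exceeds the level of SERPINB2. Leaving out each replicate in turn gave from 10.58 to 11.75 for PLAU and from 13.57 to 14.75 for SERPINB5, the lowest in both cases without replicate 1. The log2 ratio of PLAU to SERPINE2 turned from 0.31 to -0.94 with canonical transcript lengths, an alternative added after the data were seen. The same lengths lowered the mean of SERPINB5 to 980 TPM and raised those of ANXA2 to 2725 TPM, SPINT2 to 120 TPM and TFPI to 18.1 TPM. They changed no count of genes past the 1 TPM cutoff in any list. The ratios of PLAU to PLAUR and to PLAT moved by less than 1 SD under the alternatives tried. Means moved by over 1 SD for 5 of 9 genes when TPM was rescaled to protein-coding genes, for 3 with mitochondrially encoded genes left out and for 4 with canonical lengths. The rescalings multiply all remaining genes of a replicate by 1 factor, so that which genes moved reflects mostly their SD relative to their mean. No mean of 3 values can shift by 1 SD when 1 value is left out. Depth limits SERPINB2 and SERPINB13, which rest on 2 and 28 reads in all.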
